A study of Rattus norvegicus with 63 samples.

Results

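Regulators of G-protein signalling (RGS proteins) are a family that switches off signals from receptors coupled to heterotrimeric G proteins, and 7 of its genes, Rgs2, Rgs4, Rgs7, Rgs8, Rgs9, Rgs10 and Rgs14, are described here in the striatum and prefrontal cortex of rats that self-administered psychostimulants. They were chosen by annotated symbol. Each is read from the probe set with that symbol alone whose mean log2 signal was highest. Of 20832 probe sets with a single symbol 10 carry one of these symbols, and 7 of them, 1 per gene, give the values, for 7 genes of 14218. Levels are given as log2 of the normalised signal intensity, and since probe sets differ in how well they hybridise, the level of a gene is compared between groups of arrays and never with that of another gene.

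When a receptor is activated, the alpha subunit of its G protein exchanges GDP for GTP and signals until it hydrolyses the GTP, and the RGS domain speeds up that hydrolysis. RGS proteins therefore shorten signalling downstream of dopamine, opioid, cannabinoid, muscarinic and metabotropic glutamate receptors. In the striatum the family is known above all for the long splice form of Rgs9, which is enriched in medium spiny neurons and acts on dopamine D2 and opioid receptor signalling, and Rgs2 and Rgs4 are known as genes whose transcripts respond to dopaminergic drugs. Rgs2, Rgs4 and Rgs8 belong to the R4 subfamily of small proteins. Rgs7 and Rgs9 belong to the R7 subfamily, whose members are held stable by the G-protein beta subunit Gnb5 and anchored at membranes by Rgs7bp or Gpr158. Rgs10 and Rgs14 belong to the R12 subfamily.

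RNA of male Wistar rats was hybridised to 63 Affymetrix rat arrays, 32 of striatum (rostral caudate putamen with nucleus accumbens) and 31 of prefrontal cortex, in 20 groups. The rats arrived at 4 weeks of age and were injected 2 times a day for 7 days from 6 weeks of age. In the drug-pretreated cohort those injections were methamphetamine, methylphenidate or amphetamine at 5 mg/kg, place conditioning followed with the same drug at 5 mg/kg, and each group held 3 arrays per region. The saline rats of the pretreated cohort, 3 arrays per region, received saline throughout and had never met a stimulant. In the naive cohort all rats were first injected with saline. They were then place-conditioned with methamphetamine or amphetamine at 5 or 1.25 mg/kg, with methylphenidate at 5 mg/kg, or with saline. Each naive stimulant group held 3 arrays per region, except methamphetamine at 1.25 mg/kg in prefrontal cortex with 2, and naive saline had 5 per region. Rats that had shown a place preference then self-administered their own drug, at 0.1 mg/kg per infusion for methamphetamine and amphetamine and 0.25 mg in 0.1 ml per infusion for methylphenidate, and the saline rats had saline at 0.1 ml per infusion. Brains were collected 1 day after self-administration ended, and of the stimulant rats those with the most robust intake were used, so these groups were selected on behaviour. Arrays of a group are labelled as independent pools, but whether the pools shared rats is not stated, and p-values then measure the spread between these arrays, part of which may be technical.

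Within groups the arrays had Pearson correlations of 0.942 to 0.97 over 72 replicate pairs, with no identical pair. These pairs include an array of the other region's profile, named below, so correlations of this size do not tell the regions apart. On 31 of 32 striatal arrays the mean log2 signal of the striatal marker list was 11.76 to 12.54. The exception was replicate 1 of striatal naive methamphetamine at 1.25 mg/kg, where it was 8.89. There it lay below the cortical marker mean, so that this array has a cortical profile. It was kept as labelled, and the results of its group are given with and without it. Leaving it out of every fit that holds striatal arrays, an alternative chosen after seeing the data, changed the call of none of the 7 genes. The naive arrays also fell into sets of high and low signal for the bacterial BioB spike control. In each region saline replicates 4 and 5, amphetamine at 5 mg/kg and methylphenidate at 5 mg/kg were low, and the other naive arrays and all pretreated arrays were high. Both amphetamine doses in the naive cohort therefore differ in this set as well as in dose, and methamphetamine at 5 mg/kg differs from methylphenidate and amphetamine at 5 mg/kg in it too.

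The 250 bases before the annotated start of 3 of the genes are shown because these genes carried the clearest patterns below: Rgs9 for its striatal level, Rgs7 for its cortical level and Rgs4 for its lower level after stimulants. Sequences are RefSeq's on build GRCr8, read 5′ to 3′ on the gene's strand, with matches on either strand to the motifs searched in capitals.
Rgs9, chr10:94770388-94770637, minus strand: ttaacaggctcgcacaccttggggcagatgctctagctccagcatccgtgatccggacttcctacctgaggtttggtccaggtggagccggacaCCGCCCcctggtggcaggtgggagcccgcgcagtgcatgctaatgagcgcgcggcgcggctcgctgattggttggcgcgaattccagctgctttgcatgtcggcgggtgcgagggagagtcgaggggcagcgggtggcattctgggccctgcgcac
Rgs7, chr13:89941051-89941300, minus strand: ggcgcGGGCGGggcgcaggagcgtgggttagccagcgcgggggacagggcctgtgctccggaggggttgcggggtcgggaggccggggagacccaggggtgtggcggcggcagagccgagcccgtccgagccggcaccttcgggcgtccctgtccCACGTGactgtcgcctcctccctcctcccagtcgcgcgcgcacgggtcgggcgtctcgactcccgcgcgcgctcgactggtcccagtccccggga
Rgs4, chr13:84475885-84476134, minus strand: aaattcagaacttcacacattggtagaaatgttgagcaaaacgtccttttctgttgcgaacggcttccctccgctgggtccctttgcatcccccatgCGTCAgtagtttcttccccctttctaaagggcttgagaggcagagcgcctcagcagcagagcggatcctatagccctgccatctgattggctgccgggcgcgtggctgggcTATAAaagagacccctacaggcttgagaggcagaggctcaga
All 7 genes had a window of this length. The motifs searched were the CRE half-site TGACG, bound by CREB, the GC box GGGCGG, the TATA box core TATAA, the E-box CACGTG and the AP-1 site TGANTCA. They occurred in 18.2%, 30.5%, 24.0%, 5.6% and 6.3% of all 33469 promoter windows. A GC box was found in 4 of the 7 genes, at 1 position in Rgs9 and Rgs7 and at 4 in Rgs2 and 2 in Rgs10. The CRE half-site was found in Rgs4 and Rgs2, TATAA in Rgs4 alone, the E-box in Rgs7 alone and the AP-1 site in none. The Rgs7 window was 77.2% G or C, the Rgs9 window 65.6% and the Rgs4 window 54.4%, against a median of 51.2% over all windows. A match is a description of the letters in these windows and not evidence that a factor binds there.

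**Figure D1:**
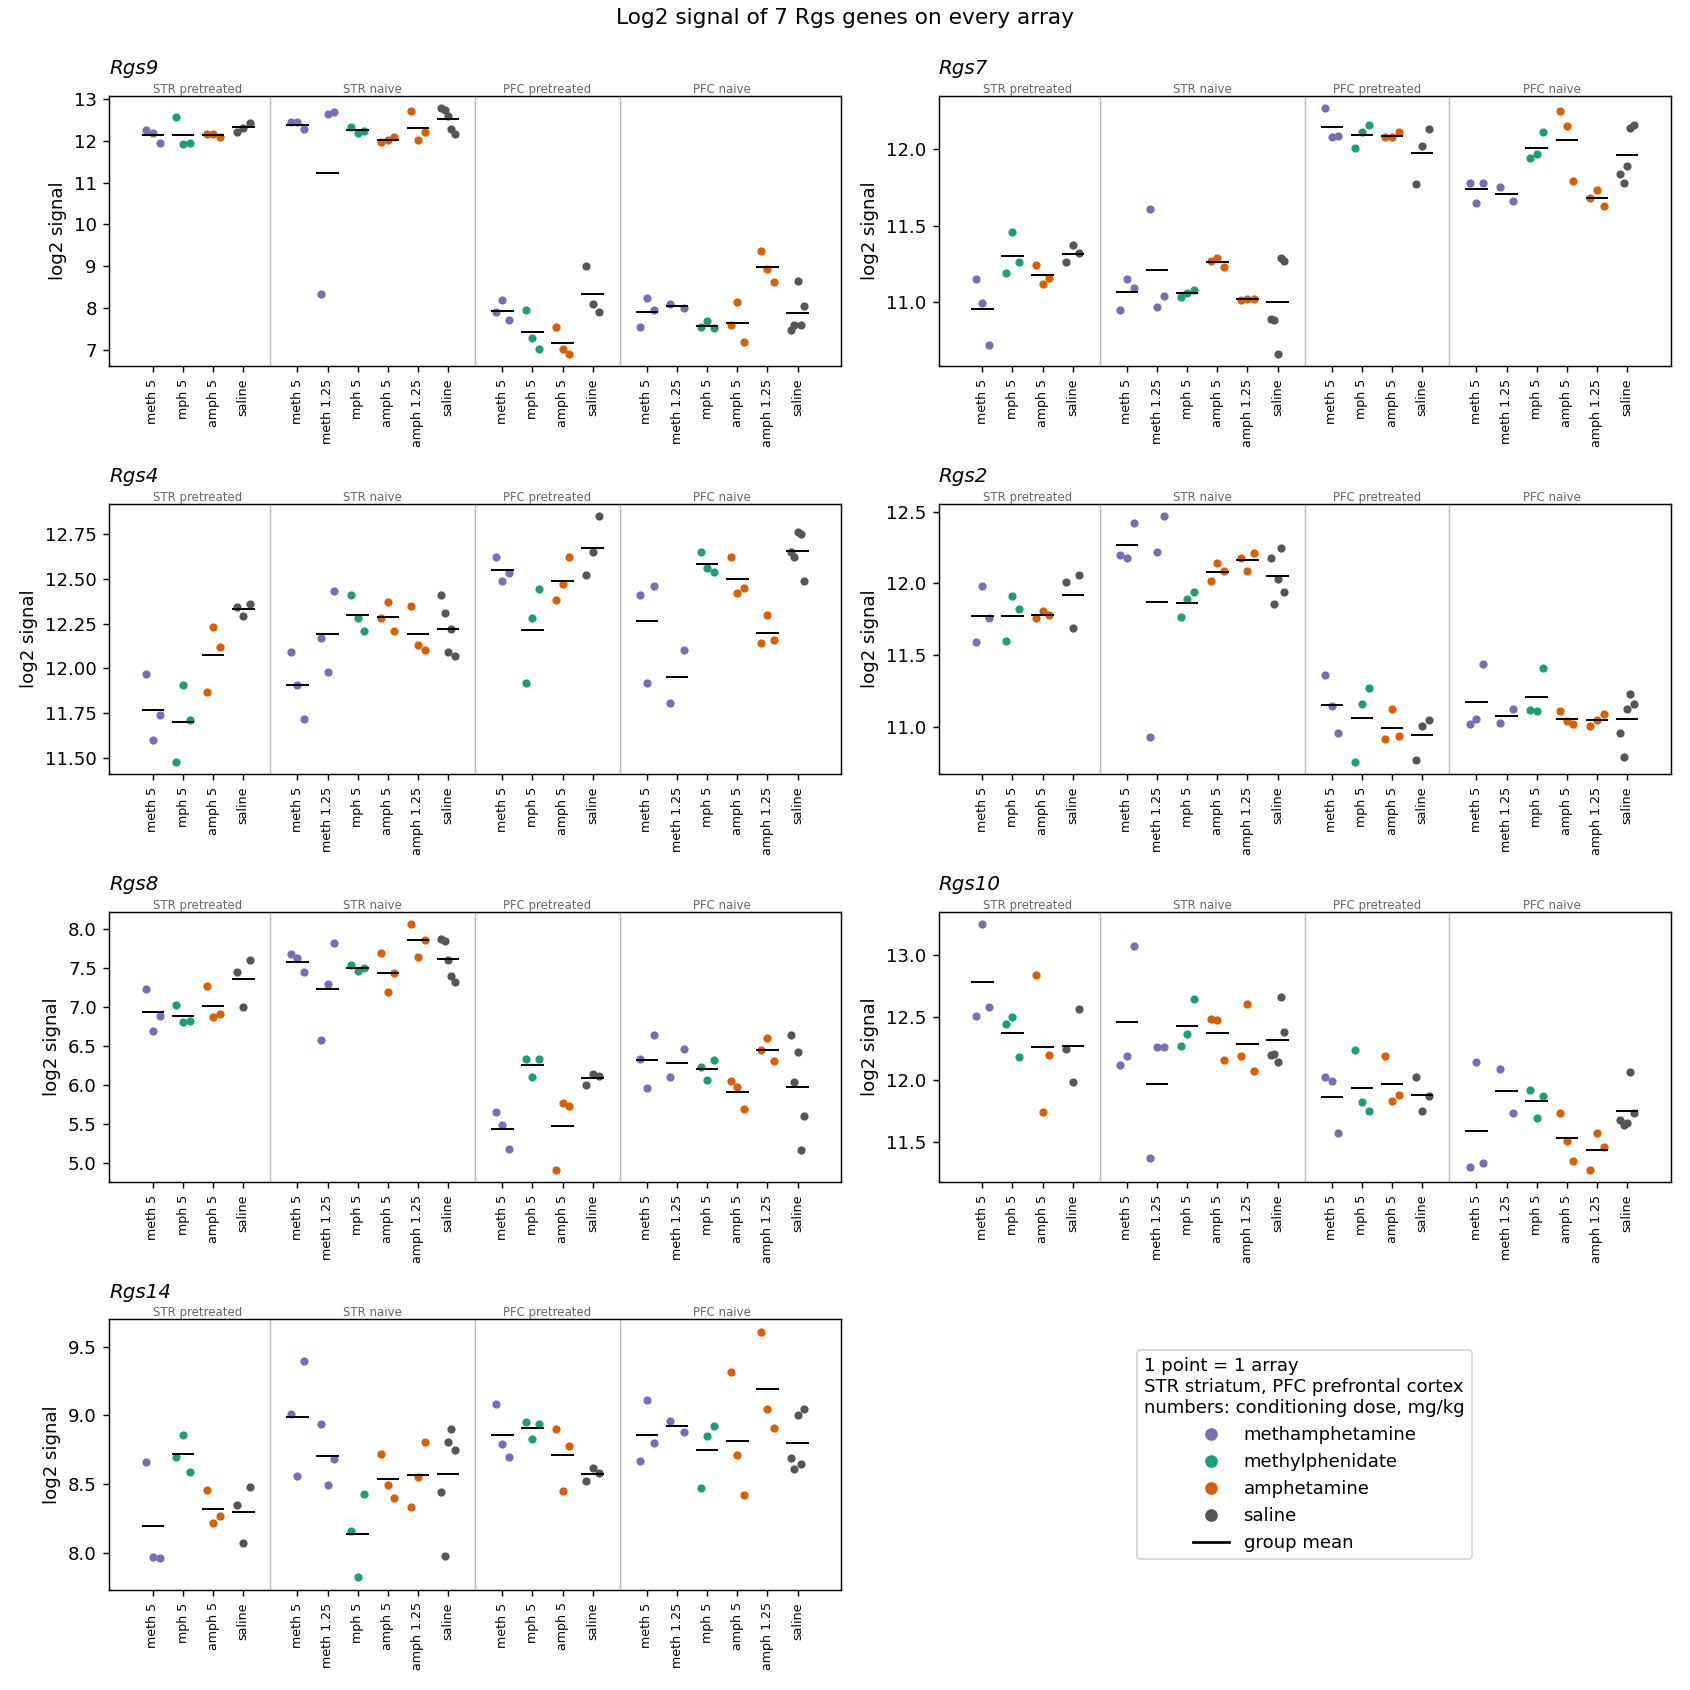
Log2 signal of the 7 Rgs genes on every array, by region, cohort, drug and conditioning dose (mg/kg). Each point is 1 array and each bar a group mean. Rgs9 separates the regions, Rgs4 is lowest after methylphenidate and methamphetamine in the pretreated striatum, and the low striatal point of Rgs9 and Rgs2 at methamphetamine 1.25 mg/kg is the array of cortical profile.

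The first comparison asked how the regions differ in saline rats, before any stimulant. Of the 7 genes, Rgs9, Rgs8, Rgs2 and Rgs10 were higher in striatum of the naive cohort, Rgs7 and Rgs4 were lower there, and Rgs14 did not pass the test. Rgs9 differed most, by 24.8-fold. All group comparisons use limma with 1 mean per group, fitted across all genes, and a gene is called when its p adjusted by the Benjamini-Hochberg method over all genes tested is under 0.05. Rgs8 lay under the filter on low signal that the other 6 genes passed. Its values come from a fit without that filter, and it is never counted among the genes called. In bulk tissue fewer cells of a type and less RNA per cell cannot be told apart.

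Rgs9 read 12.78, 12.74, 12.58, 12.28 and 12.17 on the naive striatal saline arrays, against 7.49, 7.60, 8.65, 7.61 and 8.06 on the naive cortical ones. Every striatal array lay more than 3 log2 units above every cortical array. The difference was 4.63 ± 0.37 (SE, n = 5 each; 95% interval 3.89 to 5.37; limma adjusted p = 2.34e-14). This SE rests on the spread over all 63 arrays of both regions. With the array of cortical profile left out it was 0.19, at the same difference. In saline rats of the pretreated cohort Rgs9 read 12.22, 12.31 and 12.43 in striatum, against 9.02, 8.10 and 7.90 in cortex, a difference of 3.98 ± 0.48 (limma adjusted p = 6.68e-09). The highest of these cortical arrays, saline replicate 1, also had the highest striatal marker mean of the pretreated cortical arrays, at 9.17, against 8.18 to 8.78 on the other 11. The second probe set of Rgs9 had lower signals and smaller differences. Its saline means were 7.79 in striatum and 4.96 in cortex of the naive cohort, and 7.69 and 3.97 in the pretreated cohort.

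Rgs2, which acts mainly on the Gq class of alpha subunits, read 12.18, 11.86, 12.03, 12.25 and 11.94 in naive striatal saline arrays, against 10.96, 10.79, 11.13, 11.23 and 11.16 in cortical ones. The groups did not overlap, and striatum was higher by 1.00 ± 0.14 (limma adjusted p = 9.27e-08, 2.00-fold). The pretreated cohort's saline rats gave 0.98 ± 0.18 (limma adjusted p = 3.62e-05). The second probe set of Rgs2 gave 1.18 and 1.29 in these cohorts (limma adjusted p = 3.46e-07 and 1.66e-05). Rgs8, an inhibitor of Gi and Go signalling that is abundant in Purkinje cells of the rat cerebellum, had low signals throughout, 7.88, 7.85, 7.61, 7.40 and 7.33 in striatum against 6.64, 6.04, 6.43, 5.17 and 5.61 in cortex. These too did not overlap, with a difference of 1.63 ± 0.20 (adjusted p = 5.86e-09 in the unfiltered limma fit) and 1.27 ± 0.26 in the pretreated cohort's saline rats.

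Rgs7, a brake on Go signalling that also works in retinal bipolar cells, ran the other way. It read 10.89, 10.88, 10.66, 11.29 and 11.27 in naive striatal saline arrays, against 11.84, 11.78, 11.89, 12.14 and 12.16 in cortical ones. Every striatal array was below every cortical array, by 0.96 on average (difference -0.96 ± 0.10, limma adjusted p = 3.6e-11). In the pretreated cohort's saline rats the difference was -0.66 ± 0.13 (limma adjusted p = 7.06e-05). Rgs4, a brake on Gi, Go and Gq signalling with a short-lived protein, read 12.41, 12.31, 12.09, 12.22 and 12.07 in striatum, against 12.65, 12.62, 12.76, 12.75 and 12.49 in cortex. The groups did not overlap and differed by -0.43 ± 0.10 (limma adjusted p = 0.000458). The pretreated saline difference of Rgs4, -0.34 ± 0.13 (limma adjusted p = 0.0414), lost its call when any array but cortical saline replicate 1 was left out, with adjusted p between 0.0712 and 0.204. Its second probe set gave -0.20 and -0.14, and neither passed (limma adjusted p = 0.312 and 0.659).

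Rgs10, a small protein known for its part in microglia, read 12.20, 12.21, 12.14, 12.66 and 12.38 in naive striatal saline arrays, against 11.68, 11.64, 11.65, 12.06 and 11.73 in cortical ones. All striatal arrays were above all cortical arrays, with a difference of 0.56 ± 0.18 (limma adjusted p = 0.0107) that did not pass in the pretreated cohort's saline rats (0.39 ± 0.23, limma adjusted p = 0.227). Rgs14, a scaffold that also binds Ras proteins and is known in mice from CA2 neurons of the hippocampus, differed by -0.22 ± 0.17 (95% interval -0.56 to 0.11, limma adjusted p = 0.292) and -0.27 ± 0.21 (limma adjusted p = 0.381), with overlapping arrays in the naive cohort. In all, 5 of the 6 genes that passed the filter were called in the naive cohort, where 40.4% of all genes tested were, 21.2% as higher and 19.2% as lower in striatum. In the pretreated cohort's saline rats 4 of 6 were called, against 27.0% of all genes. Their median difference was 0.17 and 0.06 in these cohorts, against 0.03 and 0.00 over all genes.

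**Figure D2:**
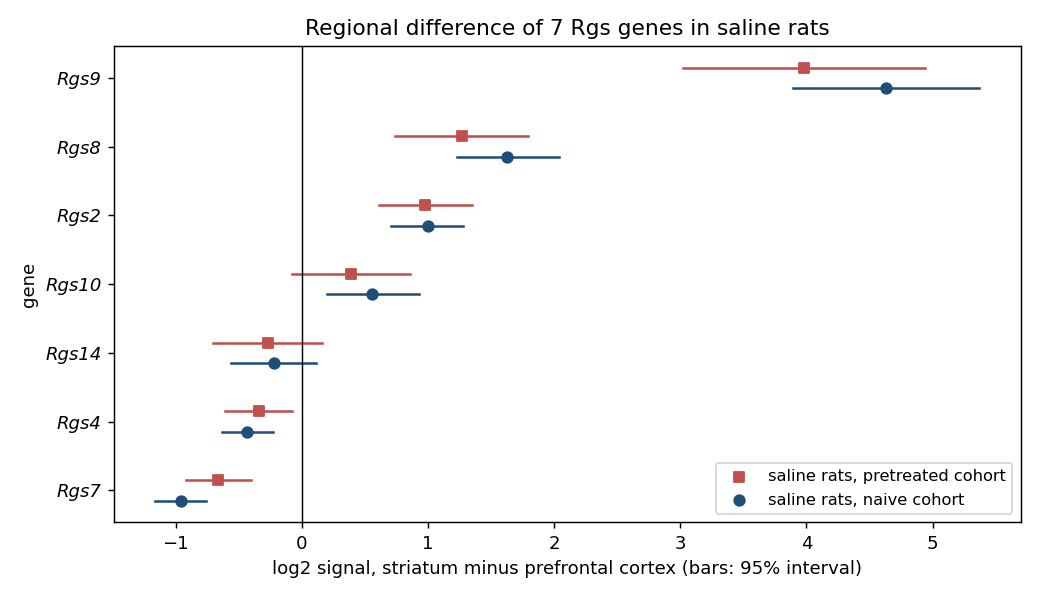
Striatum minus prefrontal cortex in saline rats for each gene (log2 difference, limma, with 95% intervals), for the pretreated and the naive cohort. Rgs9 stands at 3.98 and 4.63, Rgs8 and Rgs2 lie above 0 in both cohorts, and Rgs7 and Rgs4 lie below 0 in both.

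The partners that hold the R7 proteins in place were also measured. Gnb5 was higher in striatum by 0.47 (naive, limma adjusted p = 0.001) and 0.66 (pretreated cohort, limma adjusted p = 0.000603). Rgs7bp was higher by 0.69 and 0.61 (limma adjusted p = 2.46e-06 and 0.00122). Gpr158 gave 0.31 and 0.45, and neither passed. In these saline rats the beta partner and the anchor thus lay in the direction of Rgs9 and not of Rgs7. Among the other RGS genes on the array, 5 were tested across regions, and Rgs12, an R12 member like Rgs10 and Rgs14, passed in both cohorts, lower in striatum at -0.39 and -1.12 (limma adjusted p = 0.0386 and 1.76e-05). Rgs16, Rgs17, Rgs3 and Rgs5 gave between -0.58 and 0.39 and did not pass.

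The wider list of G-protein genes split in both directions between regions. For scale, 40.4% of all genes tested were called in the naive comparison, 21.2% as higher and 19.2% as lower in striatum. Of 8 alpha subunits tested, 2 were higher and 3 lower in naive striatum, with Gnal, the striatal alpha subunit that couples D1 receptors to adenylyl cyclase, at 3.54 and Gnas at -0.67. Of 12 beta and gamma subunits, 4 were higher and 3 lower, with Gng7 at 3.64 and Gng2 at -1.03. Of 13 receptors, 7 were higher and 3 lower, with Adora2a at 4.77 and Drd2 at 4.69. Of 7 effectors, 2 were higher and 4 lower, with Adcy5 at 2.54 and Kcnj6 at -3.41. Of 10 other regulators, Gpsm1 alone was higher, at 0.84, and 5 were lower, among them Grk2 at -0.65. Drd1, Drd2, Adora2a, Gng7 and Adcy5 are themselves on the striatal marker list.

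The second comparison set rats given a stimulant in pretreatment, conditioning and self-administration, and selected on intake, against rats given saline throughout, so that these steps cannot be told apart. In the pretreated striatum Rgs4 fell to 0.716 of its saline level, and none of the other genes passed. Rgs4 read 11.48 at its lowest, 11.87 at the median and 12.23 at its highest on the 9 stimulant arrays, against 12.34, 12.29 and 12.36 on the 3 saline arrays. All 9 stimulant arrays lay below all 3 saline arrays. The saline arrays had an SD of 0.03 and the stimulant arrays an SD of 0.24. The mean of the stimulant groups was 11.85 and that of saline 12.33, a difference of -0.48 ± 0.11 (SE; 95% interval -0.70 to -0.27; limma adjusted p = 0.0403). Rgs4 was 1 of 6 genes called, where 0.363% of all genes tested were called (31 genes). The median difference of the 6 genes was -0.16, against -0.01 over all genes. The second probe set of Rgs4 gave -0.70 ± 0.15 (limma adjusted p = 0.0393 in a fit over all probe sets).

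Each stimulant was also set against the same saline arrays, so these comparisons share their controls. After methylphenidate Rgs4 read 11.48, 11.91 and 11.71, after methamphetamine 11.97, 11.60 and 11.74, and after amphetamine 11.87, 12.23 and 12.12. All 3 groups lay below saline, and the amphetamine arrays lay closest to it. The differences were -0.63 ± 0.13 for methylphenidate (limma adjusted p = 0.048), -0.56 ± 0.13 for methamphetamine (limma adjusted p = 0.0407) and -0.25 ± 0.13 for amphetamine (limma adjusted p = 0.575). In these comparisons 0.0821%, 0.703% and 0.0% of all genes were called. On the second probe set the arrays read 9.73, 10.02 and 9.82 after methylphenidate, 10.32, 9.57 and 9.97 after methamphetamine and 10.16, 10.36 and 10.18 after amphetamine, against 10.81, 10.67 and 10.67 after saline. There too every stimulant array lay below every saline array.

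These calls rest on few arrays. The call of Rgs4 over all stimulants was lost when any of 7 of the 12 arrays was left out: saline replicate 1 (limma adjusted p = 0.248), 2 (0.142) or 3 (0.219), amphetamine 1 (0.0776), methamphetamine 2 (0.0686) or 3 (0.0523), or methylphenidate 1 (0.0639). The difference stayed between -0.52 and -0.44. The call for methamphetamine was kept only when its replicate 1 was left out, and that for methylphenidate was lost whichever of its 6 arrays was left out, with differences between -0.66 and -0.48 and between -0.74 and -0.52. Other measures moved with Rgs4 in these arrays. The mean of the 12 striatal markers was 11.76 to 12.09 on the stimulant arrays and 12.15 to 12.26 on the saline arrays, with a median difference of -0.29 and none of the 12 called. The mean of the cortical markers was 7.25 to 8.81 on stimulant arrays and 6.74 to 7.41 on saline arrays, with none of 5 tested called. The log2 ratio of the 3′ to the 5′ Gapdh probe set, a measure of RNA quality, was 0.88 to 1.24 on stimulant arrays and 0.74 to 1.04 on saline arrays. The astrocyte marker mean was 11.62 to 11.81 on the 9 stimulant arrays and 11.41 to 11.58 on the 3 saline arrays, with every stimulant array above every saline array, a median difference of 0.17 and none of 9 called. The choroid plexus marker mean was 5.47 to 8.25 on stimulant arrays (mean 7.12) and 6.23 to 6.80 on saline arrays (mean 6.44). The oligodendrocyte marker mean was 11.80 to 12.38 on stimulant arrays and 12.13 to 12.44 on saline arrays, with a median difference of -0.22 and none of 10 called. The part of these measures in the result was not tested beyond 2 covariates. With the striatal marker mean as a covariate, an alternative chosen after seeing the data, Rgs4 was at -0.47 (limma adjusted p = 0.0338), and with the Gapdh ratio as a covariate at -0.42 (limma adjusted p = 0.0706).

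**Figure D3:**
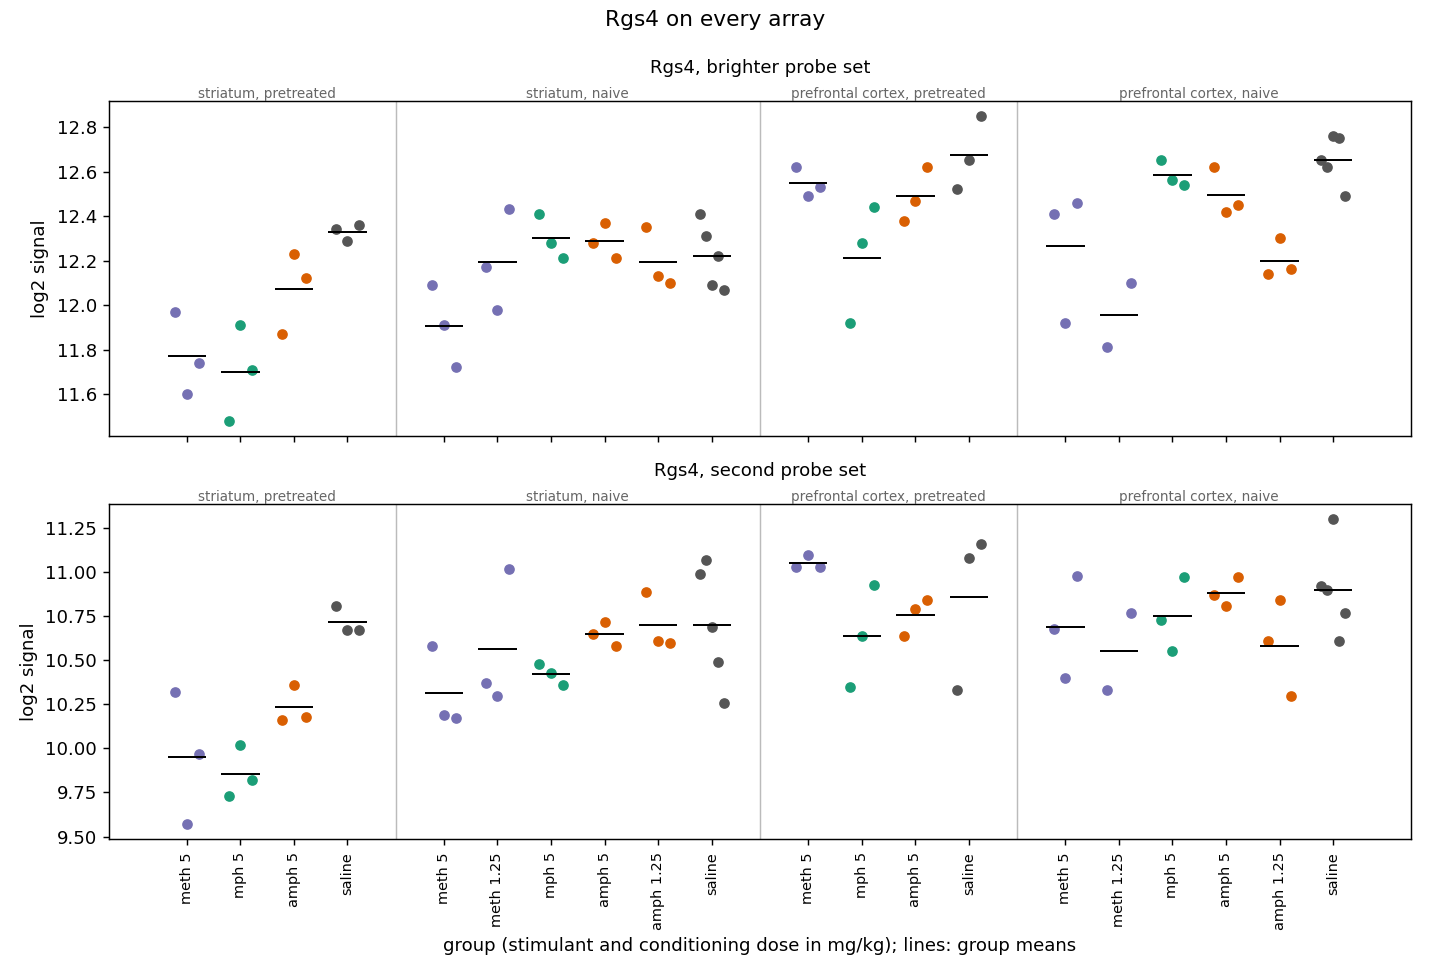
Rgs4 log2 signal on each array, by region, cohort and group, on the brighter probe set used throughout (top) and on the second one (bottom). Each point is 1 array and each bar a group mean. On the brighter probe set, in the pretreated striatum all 9 stimulant arrays (11.48 to 12.23) lie below the 3 saline arrays (12.29 to 12.36), and in both cohorts' prefrontal cortex the saline groups have the highest means (12.68 and 12.65).

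The other genes of the pretreated striatum were closer to saline relative to their spread. Rgs8 read 6.70 to 7.27 with a median of 6.89 on stimulant arrays, against 7.45, 7.01 and 7.61 on saline arrays, and 6 of 9 stimulant arrays were below all saline arrays (difference -0.41 ± 0.19, adjusted p = 0.359 in the unfiltered limma fit). Rgs7 read 10.72 to 11.46 with a median of 11.16 on stimulant arrays, against 11.26, 11.37 and 11.32 on saline arrays. Here 7 of 9 stimulant arrays were below all saline arrays, at -0.17 ± 0.12 (limma adjusted p = 0.482). Rgs9 read 11.93 to 12.56, against 12.22, 12.31 and 12.43 after saline, at -0.18 ± 0.47 (limma adjusted p = 0.875). The array of cortical profile enters the error of Rgs9 in this fit, and without it the difference was -0.18 ± 0.13 (limma adjusted p = 0.483). Rgs2, Rgs14 and Rgs10 gave -0.14, 0.11 and 0.21 with overlapping arrays.

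In the naive striatum none of the 6 genes passed, and none had an unadjusted p under 0.05, where 0.0938% of all genes were called. Rgs4 read 11.72 at its lowest, 12.21 at the median and 12.43 at its highest on the 15 stimulant arrays, against 12.41, 12.31, 12.09, 12.22 and 12.07 on the saline arrays. The saline arrays lay inside the range of the stimulant arrays (difference -0.05 ± 0.08, limma adjusted p = 0.885). Rgs9 was at -0.47 ± 0.36 with all arrays and at -0.19 without the array of cortical profile. The other genes gave between -0.09 and 0.12. The lowest group for Rgs4 was methamphetamine at 5 mg/kg, with 12.09, 11.91 and 11.72. It overlapped saline and did not pass, at -0.31 ± 0.12 (limma adjusted p = 0.293, with 0.328% of genes called), and the other naive groups lay between -0.03 and 0.08.

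In the prefrontal cortex no gene was called for the mean of the stimulants in either cohort. For Rgs4 in the naive cohort all 14 stimulant arrays lay below the saline mean, and 10 of the 14 below every saline array. They read 11.81 at the lowest, 12.42 at the median and 12.65 at the highest, against 12.65, 12.62, 12.76, 12.75 and 12.49 after saline. The difference, -0.35 ± 0.08 (95% interval -0.52 to -0.19), had a limma adjusted p of 0.106, in a comparison that called 0.0586% of all genes. It was not the same in the sets of BioB signal: -0.54 within the arrays of high signal (limma adjusted p = 0.0226) and -0.08 within those of low signal. In the pretreated cortex the 9 stimulant arrays read 11.92 to 12.62 with a median of 12.47, against 12.52, 12.65 and 12.85 after saline, and 6 of 9 lay below every saline array. The difference was -0.26 ± 0.10 (limma adjusted p = 0.727), where 0.0703% of all genes were called.

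The lowest cortical group for Rgs4 was naive methamphetamine at 1.25 mg/kg. Its 2 arrays read 11.81 and 12.10, both below all 5 saline arrays, and the difference of -0.70 ± 0.13 passed (limma adjusted p = 0.00411). This comparison called 11.1% of all genes, and without replicate 1 of the group the difference was -0.55 (limma adjusted p = 0.331). The second probe set gave -0.35 (limma adjusted p = 0.251). Amphetamine at 1.25 mg/kg read 12.14, 12.30 and 12.16, again below all saline arrays, at -0.45 ± 0.11 (limma adjusted p = 0.0719, with 0.492% of genes called). Methamphetamine at 5 mg/kg read 12.41, 11.92 and 12.46, at -0.39 ± 0.11 (limma adjusted p = 0.237, with 0.0352% of genes called). Amphetamine and methylphenidate at 5 mg/kg, whose arrays belong to the set of low BioB signal, were at -0.15 and -0.07. In the pretreated cortex methylphenidate was lowest, with 11.92, 12.28 and 12.44 and a difference of -0.46 ± 0.13 (limma adjusted p = 0.25, with 0.0938% of genes called), and amphetamine and methamphetamine were at -0.18 and -0.13.

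On the brighter probe set Rgs4 thus had saline as its highest group in 3 of the 4 settings of region and cohort. On the second probe set this did not hold in the pretreated cortex, where methamphetamine averaged 11.05 and saline 10.86. In the naive cortex saline averaged 10.9 and amphetamine at 5 mg/kg 10.89 on that second probe set. The group means of Rgs4 on the brighter probe set had the following order. In striatum the means ran from 11.70 ± 0.22 (SD) for pretreated methylphenidate, 11.77 ± 0.18 for pretreated methamphetamine, 11.91 ± 0.19 for naive methamphetamine at 5 mg/kg and 12.08 ± 0.19 for pretreated amphetamine to 12.33 ± 0.03 for saline of the pretreated cohort. The remaining 5 naive groups lay between 12.19 and 12.30. In cortex they ran from 11.96 for naive methamphetamine at 1.25 mg/kg through 12.20, 12.21 and 12.26 for naive amphetamine at 1.25 mg/kg, pretreated methylphenidate and naive methamphetamine at 5 mg/kg, which did not differ beyond their spread, and through 12.49 for pretreated amphetamine, 12.50 for naive amphetamine at 5 mg/kg, 12.55 for pretreated methamphetamine and 12.58 for naive methylphenidate at 5 mg/kg, to 12.65 for naive saline and 12.68 for saline of the pretreated cohort.

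Rgs9 in the prefrontal cortex, where its level is low, moved with the striatal markers. Over the 31 cortical arrays its log2 signal and the striatal marker mean had a Pearson correlation of 0.88, given as a description of arrays that share tissue source, dissection and group. In the pretreated cortex it read 6.91 at the lowest, 7.54 at the median and 8.19 at the highest on stimulant arrays, against 9.02, 8.10 and 7.90 after saline. Of the 9 stimulant arrays 6 were below all saline arrays (difference -0.83 ± 0.24, limma adjusted p = 0.346). It was -0.49 without saline replicate 1 and -0.22 with the striatal marker mean as a covariate. By drug, amphetamine was at -1.18, methylphenidate at -0.91 and methamphetamine at -0.40. On the second probe set of Rgs9, whose cortical signals were low, these groups averaged 4.67, 4.85 and 4.66. There they lay above the saline mean of 3.97 ± 1.52 (SD). The striatal marker mean was 8.18 to 8.23 after amphetamine, 8.26 to 8.32 after methylphenidate and 8.62 to 8.78 after methamphetamine, against 8.65 to 9.17 after saline.

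In the naive cortex the group with the highest Rgs9 was amphetamine at 1.25 mg/kg. It read 9.37, 8.93 and 8.63, against 7.49, 7.60, 8.65, 7.61 and 8.06 after saline, so that 2 of its 3 arrays were above every saline array. The difference of 1.09 ± 0.27 did not pass (limma adjusted p = 0.0617). The striatal marker mean on these arrays was 9.02 to 9.64, against 8.30 to 9.10 after saline. Of 10 striatal markers tested 3 were called higher, Drd1 by 0.97, Penk by 1.02 and Rarb by 0.95, with a median of 0.85 over the 10. With the striatal marker mean as a covariate Rgs9 was at 0.03, and without saline replicate 3, the saline array of highest Rgs9, it was at 1.29 and passed (limma adjusted p = 0.0203).

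**Figure D4:**
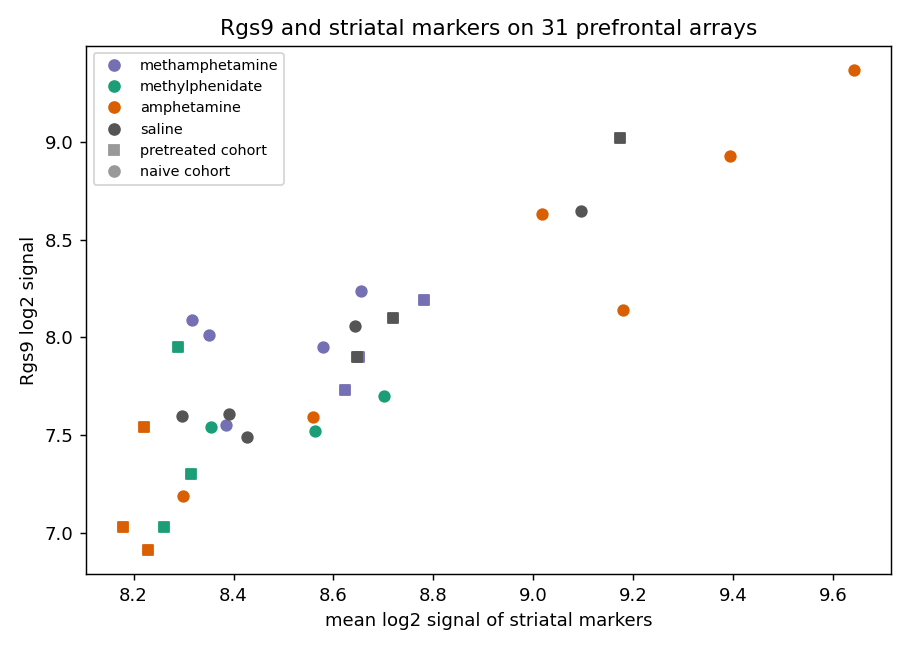
Rgs9 log2 signal (vertical) against the mean log2 signal of the striatal markers (horizontal) on each of the 31 prefrontal arrays, coloured by drug, with squares for the pretreated and circles for the naive cohort. The points rise together (r = 0.88), with the naive amphetamine arrays at 1.25 mg/kg among the highest (8.63 to 9.37) and the pretreated amphetamine arrays among the lowest (6.91 to 7.54).

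In striatum the group with the array of cortical profile is given apart for Rgs9. The means of the other 9 groups ran from 12.02 for naive amphetamine at 5 mg/kg to 12.51 for naive saline, and most neighbours in that order differed by less than the SD of either group. The arrays of naive amphetamine at 5 mg/kg, all of low BioB signal, read 11.96 to 12.10, below all naive saline arrays (12.17 to 12.78). Their difference was -0.49 ± 0.51 (limma adjusted p = 0.683). Without the array of cortical profile in the fit it was -0.49 ± 0.14 (limma adjusted p = 0.101). Naive methamphetamine at 1.25 mg/kg read 8.34, 12.63 and 12.69, with the first value on the array of cortical profile, and its other 2 arrays averaged 12.66, above the mean of every other group. Against saline this group was at -1.29 (limma adjusted p = 0.257) with that array and at 0.15 without it. The same array held the lowest striatal values of Rgs2 (10.93), Rgs8 (6.58) and Rgs10 (11.37) and the highest of Rgs7 (11.61), each on the cortical side of the region difference of that gene.

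Conditioning at 5 and at 1.25 mg/kg was compared within the naive cohort for amphetamine and methamphetamine. Of 24 tests 2 were called, where 2.19% of all genes and comparisons were, both for amphetamine in the prefrontal cortex, where 7.07% of all genes were called. Rgs9 read 7.59, 8.14 and 7.19 at 5 mg/kg, against 9.37, 8.93 and 8.63 at 1.25 mg/kg. The groups did not overlap, and the higher dose was lower by 1.33 on average (difference -1.33 ± 0.30, limma adjusted p = 0.0112). Of 10 striatal markers 6 were lower at 5 mg/kg and none higher, and with their mean as a covariate Rgs9 was at -0.42 (limma adjusted p = 0.335). Without amphetamine 5 mg/kg replicate 3 it was at -1.11 (limma adjusted p = 0.061).

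Rgs7 went the other way, with 12.25, 12.15 and 11.79 at 5 mg/kg, against 11.68, 11.73 and 11.63 at 1.25 mg/kg. The groups did not overlap, and the difference of 0.38 ± 0.11 passed (limma adjusted p = 0.0361). It was lost without any array but amphetamine 5 mg/kg replicate 3, with adjusted p between 0.0708 and 0.17 and differences between 0.29 and 0.41. The doses lay in different sets of BioB signal, and with that set as a block, estimated from the saline arrays, Rgs7 was at 0.07 (limma adjusted p = 0.966) and Rgs9 at -1.25 (limma adjusted p = 0.415). Dose and set cannot be told apart in the remaining arrays. Other measures moved with these doses. The log2 Gapdh ratio was 0.58 to 0.80 at 5 mg/kg and 0.38 to 0.43 at 1.25 mg/kg, and with it as a covariate Rgs7 was at 0.31 and not called (limma adjusted p = 0.113). The astrocyte marker mean was 11.34 to 11.45 at 5 mg/kg and 11.48 to 11.72 at 1.25 mg/kg. Of 7 microglial markers tested, the complement genes C1qb and C1qc were called lower at 5 mg/kg, by -0.99 and -0.96 (limma adjusted p = 0.0155 and 0.0161), and the mean of the list was 8.47 to 8.73 at 5 mg/kg and 8.73 to 9.11 at 1.25 mg/kg. Over the 31 cortical arrays, which share groups, Rgs7 had a Pearson correlation of -0.72 with the microglial marker mean and 0.57 with the Gapdh ratio. The part of the markers in this difference was not tested. Among the other G-protein genes in this comparison Gnas and Gnai2, alpha subunits, were lower at 5 mg/kg by -0.50 and -0.55, Gng7 by -1.11 and Gpsm1, an activator of G-protein signalling, by -0.91, and Pdcl, a phosducin-like chaperone of beta and gamma subunits, was higher by 0.41. For methamphetamine in cortex Rgs4 was at 0.31 (95% interval 0.01 to 0.60, limma adjusted p = 0.292), with no gene of the whole table called. In striatum no Rgs gene was called at either drug, where 1.68% and 0.0% of all genes were. The methamphetamine doses there include the array of cortical profile at 1.25 mg/kg. Rgs9 was at 1.16 ± 0.57 with it and -0.28 ± 0.18 without it, Rgs2 at 0.39 and -0.08, Rgs7 at -0.14 and 0.06 and Rgs10 at 0.50 and 0.20. None of these passed with or without it.

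The stimulants were compared in pairs at the matched conditioning dose of 5 mg/kg, 12 pairs over regions and cohorts. Methamphetamine and amphetamine differ by an N-methyl group and were infused at the same dose. Methylphenidate was infused at a dose set per infusion and not per body weight, so that its pairs are matched in conditioning dose only. Of 72 tests 1 was called, where 0.538% of all genes and pairs were. Rgs14 in the naive striatum read 9.01, 8.56 and 9.40 after methamphetamine, against 8.16, 7.82 and 8.43 after methylphenidate. The groups did not overlap, and methamphetamine was higher by 0.85 ± 0.23 (95% interval 0.39 to 1.32, limma adjusted p = 0.0485), where 1.57% of all genes were called. The arrays of this pair lay in different sets of BioB signal, and 6 of 10 tested activity-regulated genes were called higher after methamphetamine. The blood marker mean was 6.48 to 7.67 after methamphetamine and 8.85 to 10.34 after methylphenidate, and the choroid plexus marker mean 6.64 to 7.46 after methamphetamine and 5.94 to 6.12 after methylphenidate. The log2 Gapdh ratio was 0.71 to 1.08 after methamphetamine and 1.13 to 1.23 after methylphenidate. None of these 3 measures overlapped between the groups. With the Gapdh ratio as a covariate Rgs14 was at 1.02 and not called (limma adjusted p = 0.065), and over 31 striatal arrays, without the one of cortical profile, Rgs14 had a Pearson correlation of -0.50 with the blood marker mean. Whether the set, the activity-regulated genes or these markers bear on Rgs14 was not tested. The call was lost without methamphetamine replicate 1 or 3 or methylphenidate replicate 1 or 2 (limma adjusted p between 0.0936 and 0.213). In the pretreated striatum Rgs14 read 8.66, 7.97 and 7.96 after methamphetamine, against 8.70, 8.86 and 8.59 after methylphenidate, so that the same pair was at -0.52 (95% interval -0.98 to -0.06, limma adjusted p = 0.547).

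For Rgs4 the pairs give intervals and no call. In the pretreated striatum methamphetamine minus amphetamine was -0.31 (95% interval -0.57 to -0.04), methylphenidate minus amphetamine -0.37 (-0.64 to -0.11) and methamphetamine minus methylphenidate 0.07 (-0.20 to 0.33), with limma adjusted p of 0.999, 0.997 and 0.887. In the naive striatum methamphetamine minus amphetamine was -0.38 (-0.64 to -0.11, limma adjusted p = 0.11) and methamphetamine minus methylphenidate -0.39 (-0.66 to -0.13, limma adjusted p = 0.1), and all 3 methamphetamine arrays were below all arrays of both. In cortex Rgs4 was at 0.05 in pretreated rats (-0.21 to 0.32) and at -0.24 in naive rats (-0.50 to 0.02) for methamphetamine minus amphetamine. Rgs7 in the naive cortex gave -0.32 for methamphetamine minus amphetamine (-0.55 to -0.10, limma adjusted p = 0.111). Rgs2 in the naive striatum gave 0.40 ± 0.21 for methamphetamine minus methylphenidate (limma adjusted p = 0.324). With the array of cortical profile left out of the fit this was 0.40 ± 0.12 (limma adjusted p = 0.0541). Its arrays read 12.18 to 12.42 and 11.77 to 11.94 and lay in different sets of BioB signal. Methamphetamine and amphetamine thus passed the test for none of the 6 genes in any region or cohort, which does not show that they act alike.

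**Figure D5:**
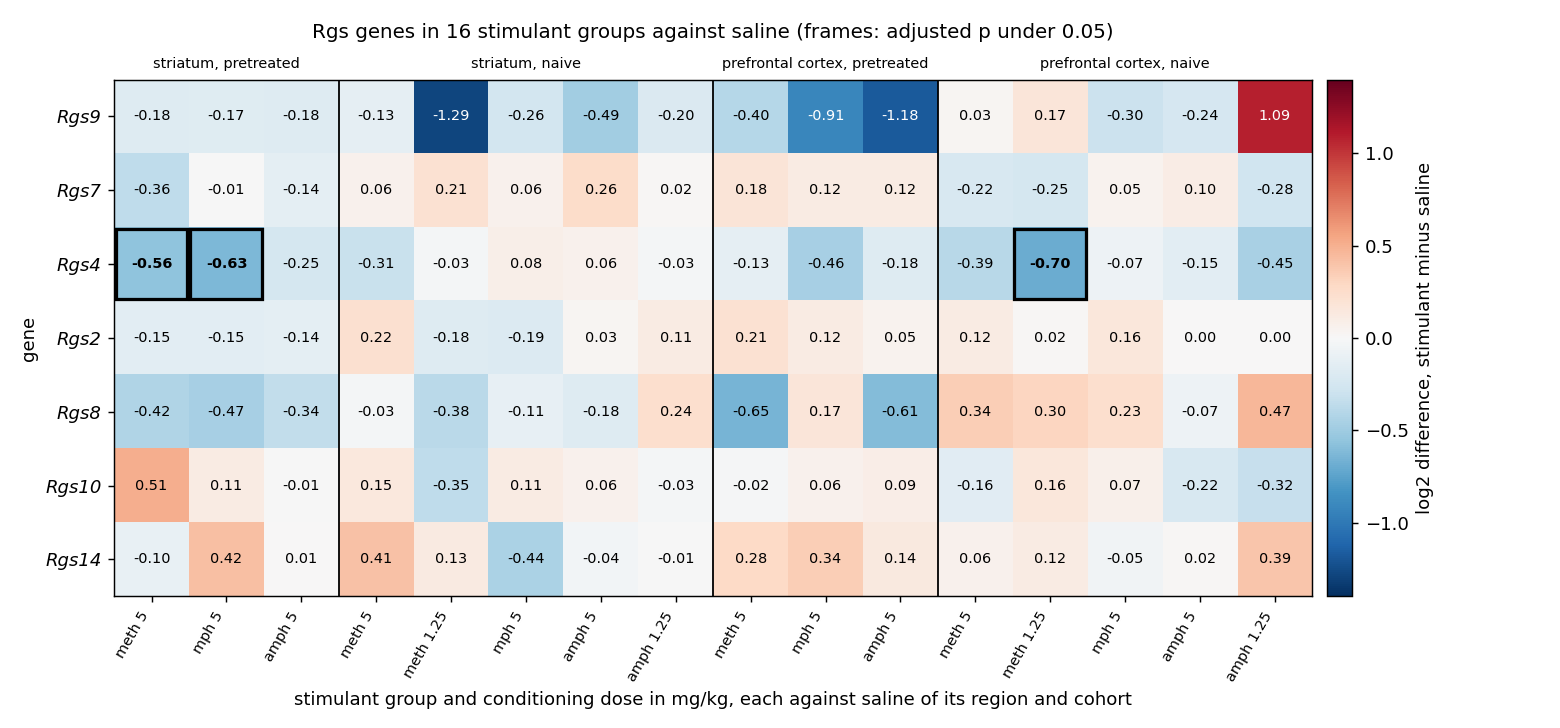
Log2 difference of each stimulant group from the saline rats of its own cohort and region for the 7 genes (limma; colour and number give the difference, and a frame marks an adjusted p under 0.05). The 3 framed cells are Rgs4 after methamphetamine (-0.56) and methylphenidate (-0.63) in the pretreated striatum and after methamphetamine at 1.25 mg/kg in the naive prefrontal cortex (-0.70).

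Of the 96 tests of a single stimulant group against saline, the 3 named for Rgs4 were called, where 0.848% of all genes were called over these comparisons. Rgs2, Rgs7, Rgs9, Rgs10 and Rgs14 were called in none. Rgs10 was highest in the pretreated striatum after methamphetamine, with 12.51, 13.25 and 12.58, against 12.25, 11.98 and 12.57 after saline, at 0.51 and overlapping. Rgs14 in the pretreated cortex read 8.45 to 9.08 on stimulant arrays with a median of 8.83, against 8.52, 8.62 and 8.58 after saline. All but 1 of the 9 were above every saline array, at 0.25 (limma adjusted p = 0.999). Rgs8 in the pretreated cortex was at -0.65 after methamphetamine and -0.61 after amphetamine, with 5.66, 5.49 and 5.18 and with 4.92, 5.78 and 5.74, against 6.01, 6.15 and 6.12 after saline. Those arrays did not overlap with saline, but neither difference passed, at signals low enough that the gene lies under the filter.

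The remaining genes had the following ranges of group means within a region. In striatum those of Rgs8 and Rgs14 were wider than that of Rgs4 (11.70 to 12.33). Rgs2 lay between 11.77 and 12.27 in striatum and between 10.94 and 11.21 in cortex. Rgs7 lay between 10.96 for pretreated methamphetamine and 11.31 in striatum, and in cortex between 11.68, 11.71 and 11.74 for the naive groups of amphetamine at 1.25 mg/kg and methamphetamine at 1.25 and 5 mg/kg and 12.15 for pretreated methamphetamine. Rgs10 lay between 11.96 and 12.78 in striatum and between 11.44 and 11.97 in cortex. These striatal ranges include the array of cortical profile. Without it naive methamphetamine at 1.25 mg/kg was at 12.26 for Rgs10 and 12.34 for Rgs2, against 11.96 and 11.87 with it. Rgs14 lay between 8.13 and 8.99 in striatum and between 8.57 and 9.19 in cortex. Rgs8 lay between 6.89 and 7.86 in striatum, with the 3 pretreated stimulant groups lowest, and between 5.44 and 6.45 in cortex. Within each of these orders most neighbours differed by less than the SD of either group.

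Whether an effect differed between cohorts or regions was tested directly. None of the 12 tests of the mean stimulant effect, the 36 of single stimulants or the 12 between regions was called. Over all genes these comparisons called 0.0% between regions, 0.0% to 0.0234% between cohorts in cortex and 0.0117% to 0.0586% in striatum, with 0.0352% for amphetamine there. Rgs4 in striatum was at -0.48 in pretreated and -0.06 in naive rats at 5 mg/kg, a difference of -0.42 ± 0.14 (95% interval -0.70 to -0.14, limma adjusted p = 0.131, with 0.0586% of genes called). For methylphenidate alone Rgs4 was at -0.63 in pretreated and 0.08 in naive striatum, a difference of -0.71 ± 0.17 (limma adjusted p = 0.103, with 0.0117% of genes called). Rgs14 with methylphenidate was at 0.42 in pretreated and -0.44 in naive striatum, and this difference of 0.86 did not pass (limma adjusted p = 0.205). Between regions Rgs4 in the naive cohort was at -0.05 in striatum and -0.35 in cortex, a difference of 0.31 (95% interval 0.07 to 0.54, limma adjusted p = 0.751, with no gene called). The fall of Rgs4 in the pretreated striatum is therefore not shown to be particular to that cohort or region.

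Of the other genes of the pathway, Cnr1 passed in the mean stimulant comparisons: 12.33 after stimulants and 13.07 after saline in the pretreated striatum (difference -0.74 ± 0.13, limma adjusted p = 0.00816), 1 of 13 receptors tested. Cnr1 encodes the cannabinoid receptor CB1, which couples to the Gi and Go proteins on which Rgs4 acts. No alpha, beta or gamma subunit, effector or other regulator was called in any of these 4 comparisons, and no other RGS gene was. The nearest among them in the pretreated striatum was Rgs12 at 0.67 (limma adjusted p = 0.0964). Gnb5 was at -0.32 there (limma adjusted p = 0.197).

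Finally, the genes most like each Rgs gene were sought by the Pearson correlation of group means over the 20 groups, among genes that passed the filter. For Rgs9 they were Asic4 (0.997), Drd1 (0.996) and Ppp1r1b (0.996), for Rgs2 Pou3f1 and Hpca (0.98 each), for Rgs8 Vps37c (0.961) and for Rgs7 Fbxw7 (0.986). For Rgs10 the nearest was Bbip1 (0.957), for Rgs4 Faim2 (0.916) and for Rgs14 Parva (0.877). The groups of a region share most of what separates them here. The striatal means also include the array of cortical profile. For naive methamphetamine at 1.25 mg/kg Rgs9 averaged 11.22 with that array and 12.66 without it, against 12.02 to 12.51 in the other striatal groups. The part of that array in the correlations was not tested. Within a region, over 10 groups, Rgs9 was nearest to Syndig1l (0.957) in striatum and Arhgap6 (0.938) and Ppp1r1b (0.935) in cortex. Rgs4 was nearest to C8h11orf87 (0.936) in striatum and Opn3 (0.966) in cortex, Rgs7 to Stmn2 (0.94) in striatum and Nsun2 (0.963) in cortex, and Rgs2 to Gdpd5 (0.938) in striatum and Pef1 (0.899) in cortex. Among themselves Rgs2 and Rgs9 were most alike over the 20 groups (0.948), and Rgs4 was nearest to Rgs7 (0.659).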

How the data were processed

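The deposited intensity values are linear MAS5 signals, per the submitters' processing notes, whose version and scaling are not given in the sources used here. On every array their 2% trimmed mean was 500.1 to 500.2 and the median signal 120.4 to 155.6, and the number of arrays limits the precision. Values under 1 were set to 1 (18232 values) and log2 taken. Of 31099 probe sets 20832 had 1 annotated symbol, 436 several and 9831 none. Per gene the probe set of highest mean was used, giving 14218 genes, and the lowest 40% were left out.

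Groups come from the labels. Each region was fitted with limma 3.58.1 (R 4.3.3), 1 mean per group and a variance trend, on 8531 genes, with Benjamini-Hochberg adjustment and a threshold of 0.05. All arrays of a region shared the spread. Differences between regions, in saline rats and in the stimulant effect, came from a joint fit of the same kind over all 63 arrays, which then shared the spread. The steps were tested on simulated data. Tables and figures used python 3.11.15, pandas 2.3.3, numpy 2.4.6, scipy 1.17.1 and matplotlib 3.10.9.

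All 7 genes are named in every comparison. Of the other lists the text names RGS and R7 partner genes, and up to 3 genes per list of smallest p. For likeness it names genes of highest correlation. The members and the lists, of which 188 of 207 genes matched, were chosen with earlier results of these data known. Striatal saline replicate 1 of the naive cohort has a description that names cortex; its title and tissue say striatum, and Rgs9 read 12.78 there.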

Additional observations from a re-analysis of the deposited data

Results flagged for a closer look

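Rgs10 in the prefrontal cortex of naive saline rats read 12.06 in replicate 4, apart from the other 4 arrays at 11.64 to 11.73. Its gap to the nearest of them was 0.797 of the range of the group. Groups of 5 arrays for each gene and region, 14 in all, were looked at in this way, and chance alone sets about 1 in 20 groups apart. With any of the 10 naive saline arrays left out, this one included, the region difference of Rgs10 kept its call, with values from 0.48 to 0.64.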

How the results depend on the processing

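The limits are few arrays, groups selected on behaviour, and sets of BioB signal that coincide with some doses and drugs. Alternatives were quantile normalization, a pseudocount at the 20th percentile, no filter, a 60% filter, no variance trend, a replicate block, the BioB set as a block or within its sets, the Gapdh ratio or (chosen after seeing the data) the striatal marker mean as a covariate, the cohort's own arrays, all probe sets or (also chosen later) the second probe set, and leaving out each array. Members called for stimulants in the pretreated striatum were 1, and 0 with no variance trend (Rgs4 adjusted p = 0.0526 in limma) or the Gapdh covariate. In the naive cortex they were 0, and 1 within the high BioB arrays. For single stimulants they were 3, and 1 with the Gapdh covariate or the cohort's own arrays. The call of Rgs4 after methylphenidate in the pretreated striatum was the least stable of these. Apart from leaving out arrays, it was lost in 8 other settings (limma adjusted p between 0.0559 and 0.0938) and kept in 5. Among the 8 were no filter, no variance trend, the replicate block, the BioB block and the striatal covariate. For pairs the members called were 1, and 0 with quantile normalization, no filter, the 60% filter, the BioB block, the Gapdh covariate or the cohort's own arrays. For doses they were 2, then 1 with the 60% filter, the Gapdh covariate or the cohort's own arrays, and 0 with the BioB block or the striatal covariate. Under the 60% filter Rgs14 in striatum and Rgs9 in cortex were left out of the fit, with mean signals at percentiles 52.8 and 44.0 of their region. The cause of the other changes was not tested.

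Leaving out 1 array gave 0 to 1 members for stimulants in the pretreated striatum, 1 to 4 for single stimulants, 0 to 1 for pairs, 1 to 4 for doses and 3 to 4 for the region difference in the pretreated cohort. Without cortical naive methamphetamine 5 mg/kg replicate 2 the count for doses was 4. Values that passed no test changed sign in the following. In the naive cortex these were Rgs2 at -0.06, Rgs9 at -0.22 and Rgs14 at -0.06 within the low BioB arrays, Rgs8 at -0.02 within the high ones, Rgs9 at -0.01 with the striatal covariate, and Rgs7 at 0.01 and Rgs8 at -0.13 with the replicate block. In the naive striatum they were Rgs4 at 0.15, Rgs7 at -0.12, Rgs8 at 0.11 and Rgs14 at -0.49 within the low BioB arrays, Rgs10 at 0.12 with the replicate block, 0.05 with the striatal covariate and 0.06 within the high BioB arrays, and Rgs14 at -0.01 with the Gapdh and -0.02 with the striatal covariate; without the array of cortical profile in any fit, chosen after seeing the data, Rgs10 was at 0.05, Rgs14 at -0.01 and Rgs9 after methamphetamine 1.25 mg/kg at 0.15. In the pretreated striatum Rgs9 was at 0.13 with the striatal covariate and 0.31 on its second probe set. Leaving out 1 array gave -0.01 to 0.10 for Rgs2 in the naive cortex, -0.07 to 0.07 for Rgs10 and -0.14 to 0.09 for Rgs14 in the naive striatum, -0.02 to 0.11 for Rgs10 in the pretreated cortex and -2.03 to 0.15 for Rgs9 after methamphetamine 1.25 mg/kg in the naive striatum. Apart from leaving out arrays, 31 single values lost a call under an alternative and 1 gained one.

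The labels do not say that same-numbered arrays share rats. Over groups of a region and cohort, deviations of same-numbered arrays had mean correlations of -0.042 to 0.183. Between regions the mean was 0.196 (lowest -0.569), and 23 of 31 arrays correlated best with their own number, as did 9 of 12 in the pretreated cortex, a hint from the data and not the design. With same-numbered arrays of both regions as a random replicate block, chosen after seeing the data (correlation 0.149), 5 members were called between regions in the naive and 4 in the pretreated cohort, as without it. With the replicate block Rgs4 in the pretreated striatum was at -0.48 (limma adjusted p = 0.0462) and for methylphenidate at -0.63 (limma adjusted p = 0.0813). Rgs10 between regions in the naive cohort was at 0.52 within high and 0.62 within low BioB arrays and passed in neither (limma adjusted p = 0.0859 and 0.113).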

Other observations

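The second probe sets hold values that differ in size from the probe sets described above. For Rgs2 in the pretreated striatum the second probe set was at -0.59 ± 0.21 over all stimulants (limma adjusted p = 0.175), against -0.14 on the main one. For Rgs9 in the naive striatum it was at -0.73 ± 0.23 (limma adjusted p = 0.187), against -0.47. Both values include the array of cortical profile. On the second probe set that array read 5.55, and the other arrays of its group read 7.30 and 7.62. Without it the main probe set was at -0.19, and the second was not fitted without it. For Rgs4 after methamphetamine in the pretreated striatum the second probe set was at -0.76 (limma adjusted p = 0.0463), against -0.56, and after methylphenidate at -0.86 (limma adjusted p = 0.0742), against -0.63. Whether the probe sets of a gene read different transcripts was not tested.

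Within striatum, over the 31 arrays without the one of cortical profile, the striatal marker mean had a Pearson correlation of 0.85 with Rgs8, 0.78 with Rgs9, 0.57 with Rgs2 and 0.55 with Rgs4. Within prefrontal cortex, over 31 arrays, the Gapdh ratio had a correlation of 0.59 with Rgs10, 0.57 with Rgs7 and -0.52 with Rgs8. These describe arrays that share groups.

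Other groups of G-protein genes were called after methamphetamine at 1.25 mg/kg in the naive prefrontal cortex, the comparison with 2 stimulant arrays in which 11.1% of all genes were called. Among them Gng5 was higher by 0.58 and Gng10 by 0.38, both gamma subunits, and Gnb2 lower (-0.53), a beta subunit. The GABA-B receptor subunit Gabbr2 was at -0.58, the metabotropic glutamate receptor Grm3 at -0.46 and the G-protein-gated potassium channel Kcnj6 at -0.78.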
